A study of Mus musculus with 6 samples.

Results

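The chromatin around 8 genes that hold back the cell cycle or act in the p53 pathway was examined in mouse osteoblasts with and without Fam20c, a kinase of secreted proteins that acts in bone and tooth mineralization. The genes were Cdkn1a, Cdkn1b, Cdkn2a, Cdkn2b, Cdkn2c, Trp53, Mdm2 and Rb1, a list chosen because the cells are an immortalized line. Accessible sites were taken from ATAC-seq, in which the transposase Tn5 inserts sequencing adapters into open chromatin. OB Fam20c f/f is an immortalized osteoblast line whose Fam20c alleles are floxed, and OB Fam20c KO is the same line after infection with a lentivirus for Cre recombinase, so both groups share the immortalization. Only the KO cells are said to have received a virus, and a control virus for the f/f cells is not mentioned in the sources used here. Each group had 3 libraries, from untreated cells in αMEM with 10% fetal bovine serum and 5% CO2. Whether the KO cells were 1 clone or a pool, how the line was immortalized, and the strain and age of the mice are not given in the sources used here. Nothing says that the libraries of a group came from separate cultures, so p-values measure the spread between these libraries, which may be technical.

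Overlapping peaks (1 bp or more) of the authors' 6 lists were joined, which gave 89410 merged regions, and a region was assigned to a gene when it overlapped the RefSeq span of the gene extended by 20 kb on each side. This gave 37 regions at the 8 genes, 5 of which were shared by Cdkn2a and Cdkn2b, whose spans lie next to each other on chromosome 4. Of the 37 regions, 14 overlapped the span of a listed gene itself. The other regions lay in the flanks and may belong to neighbouring genes, which are named below where one overlaps.

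The cyclin-dependent kinase inhibitors fall into 2 families. Cdkn1a (p21) and Cdkn1b (p27) bind cyclin and kinase complexes, whereas Cdkn2a (p16Ink4a), Cdkn2b (p15Ink4b) and Cdkn2c (p18Ink4c) bind the kinases CDK4 and CDK6 and keep them from phosphorylating the retinoblastoma protein, the product of Rb1, which restrains entry into S phase. Cdkn2a also encodes Arf from an upstream first exon. Arf inhibits Mdm2, the ubiquitin ligase that marks p53 for degradation, and p53, the product of Trp53, activates both Cdkn1a and Mdm2. Cultured cells often become immortal by losing the Cdkn2a locus or p53, or by a viral protein that binds p53 and the retinoblastoma protein.

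Sequence before the starts is shown for 3 genes, because the starts of Cdkn1a differed in whether a peak covered them, those of Cdkn2a in their standing, and because Mdm2 and Cdkn1a are targets of p53. Each line gives the 250 bases before an annotated start on the strand of the gene, 5′ to 3′, from the RefSeq promoter table of GRCm38.p6. Capitals mark matches on either strand to the Sp1 core GGGCGG, to the box CCAAT that the factor NF-Y binds, to the AP-1 core TGANTCA, to the E2F motif in the forms TTTCCCGC, TTTCGCGC, TTTGCCGC and TTTGGCGC, and to the decamer bound by p53, which is paired in full p53 sites.
Cdkn1a, distal start, chr17:29090729-29090978, plus strand: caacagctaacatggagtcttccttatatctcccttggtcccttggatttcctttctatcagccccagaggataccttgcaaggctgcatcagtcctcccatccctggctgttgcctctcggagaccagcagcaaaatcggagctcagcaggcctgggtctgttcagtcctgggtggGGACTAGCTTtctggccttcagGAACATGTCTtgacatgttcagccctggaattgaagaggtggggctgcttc
Cdkn1a, proximal start, chr17:29093519-29093768, plus strand: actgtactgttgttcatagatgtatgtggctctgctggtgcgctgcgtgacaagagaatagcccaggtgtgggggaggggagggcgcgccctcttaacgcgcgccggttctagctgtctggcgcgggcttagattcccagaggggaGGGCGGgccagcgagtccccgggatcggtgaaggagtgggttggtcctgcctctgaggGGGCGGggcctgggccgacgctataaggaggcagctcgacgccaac
Cdkn2a, Arf start, chr4:89294620-89294869, minus strand: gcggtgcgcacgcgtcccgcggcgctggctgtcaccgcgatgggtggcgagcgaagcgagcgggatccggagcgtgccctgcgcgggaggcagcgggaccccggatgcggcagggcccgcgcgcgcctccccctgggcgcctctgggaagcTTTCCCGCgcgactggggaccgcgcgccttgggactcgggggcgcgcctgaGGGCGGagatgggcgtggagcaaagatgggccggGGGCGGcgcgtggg
Cdkn2a, p16Ink4a start, chr4:89282193-89282442, minus strand: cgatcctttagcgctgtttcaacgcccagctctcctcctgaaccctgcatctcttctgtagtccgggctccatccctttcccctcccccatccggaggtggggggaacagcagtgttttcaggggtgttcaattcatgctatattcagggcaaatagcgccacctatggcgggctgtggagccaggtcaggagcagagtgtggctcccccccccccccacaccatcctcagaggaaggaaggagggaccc
Mdm2, chr10:117710759-117711008, minus strand: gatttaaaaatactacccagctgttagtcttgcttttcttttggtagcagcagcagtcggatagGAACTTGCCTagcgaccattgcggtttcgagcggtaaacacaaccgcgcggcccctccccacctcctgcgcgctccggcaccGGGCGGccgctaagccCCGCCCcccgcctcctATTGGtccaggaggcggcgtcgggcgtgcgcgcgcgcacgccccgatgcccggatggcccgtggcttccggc

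The window before the distal start of Cdkn1a held 2 p53 decamers, GGACTAGCTT at 73 to 64 bases and GAACATGTCT at 51 to 42 bases before the start. These 2 were not directly adjacent. Near matches to the decamer, such as the bases directly after GAACATGTCT, were not marked or counted. At least 1 decamer stood in 7.13% of the 32851 windows of this kind in the table, and 2 or more stood in 0.259%. The windows of Mdm2 and Trp53 held 1 decamer each. The Arf window was the richest in CpG, with 40 CpG dinucleotides and 78.4% GC, against 7 CpG and 60% GC before the p16Ink4a start and medians of 6 CpG and 52.4% GC over all windows. It also held the E2F motif, found in 1.86% of windows, and 2 copies of GGGCGG, found in 32.7%. CCAAT was found in 33.8% of windows. TGANTCA, in 6.75% of windows, was in none of the 10 windows of the listed genes. These matches describe letters and not bound factors.

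The lists held 64033, 62781 and 74797 peaks for the f/f libraries and 64141, 64582 and 32958 for the KO libraries. The list of KO replicate 3 was the shortest. A region without a peak in that library did not pass the authors' q-value at its depth and enrichment, and depth in reads was not analysed here. The paper lists more uniquely mapped reads for KO replicate 3 than for f/f replicate 1, which had 64033 peaks. Why the list of KO replicate 3 was short was not tested. Peaks were at 25, 25 and 32 of the 37 regions in the f/f libraries and at 27, 25 and 18 in the KO libraries. Of the osteoblast markers, 7 of 9 had a region with a peak in all 6 libraries within 3 kb, Runx2 and Sp7 included, and Bglap and Ibsp had no peak in any. Of the markers of blood, endothelium, epithelium, muscle, cartilage and fat, 7 of 11 did, and these had 24, 18 and 28 peaked regions in the f/f libraries against 23, 24 and 9 in the KO libraries. At Fam20c itself the region over the lower end of the gene span, chr5:138754183-138756831, had a peak in all 6 libraries and was higher in KO (adjusted p = 0.00778, limma). Inside the gene, chr5:138775041-138775359 had a peak in 2 f/f and 0 KO libraries, and chr5:138769229-138769507 in 0 f/f and 1 KO library. Outside it, at lower coordinates, chr5:138740270-138740641 had a peak in 3 of 3 f/f libraries and 0 of 3 KO libraries. Also outside, chr5:138735529-138735715 and chr5:138742439-138742734 each had a peak in 0 f/f libraries and 1 KO library. Whether any of these lies in the deleted part is not given in the sources used here.

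No region at the 8 genes was lost or gained altogether between the groups. Of the 37 regions, 0 had a peak in all f/f and no KO library, against 3.75% of all merged regions, and 0 had a peak in all KO and no f/f library, against 0.179%. For as few as 37 regions, both counts are near the background. A peak in all 6 libraries was found at 18 of the 37 regions (48.6%, against 33.4% of all regions). Each of the 8 genes had at least 2 such regions. The 10 regions found in 1 library were narrow, with a median width of 299.5 bp against 1553.5 bp for the 18 shared regions, and 7 of them were in f/f replicate 3, the longest list. Another 4 regions had a peak in every library but KO replicate 3 (10.8%, against 19.2% of all regions). Without KO replicate 3, 1 region had a peak in both KO libraries and no f/f library. It was chr17:29118106-29118440, inside Rab44 and 17.4 kb from Cdkn1a, at percentiles 18.5 and 48.2 of the lists, where 2.93% of all regions were then only in KO. Without KO replicate 1, 1 region just beyond Mdm2, chr10:117688247-117688821, was only in f/f, as were 5.49% of all regions. It stood at percentiles 36.3, 33.4 and 40.4 in the f/f lists and at 22.1 in KO replicate 1.

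**Figure D1:**
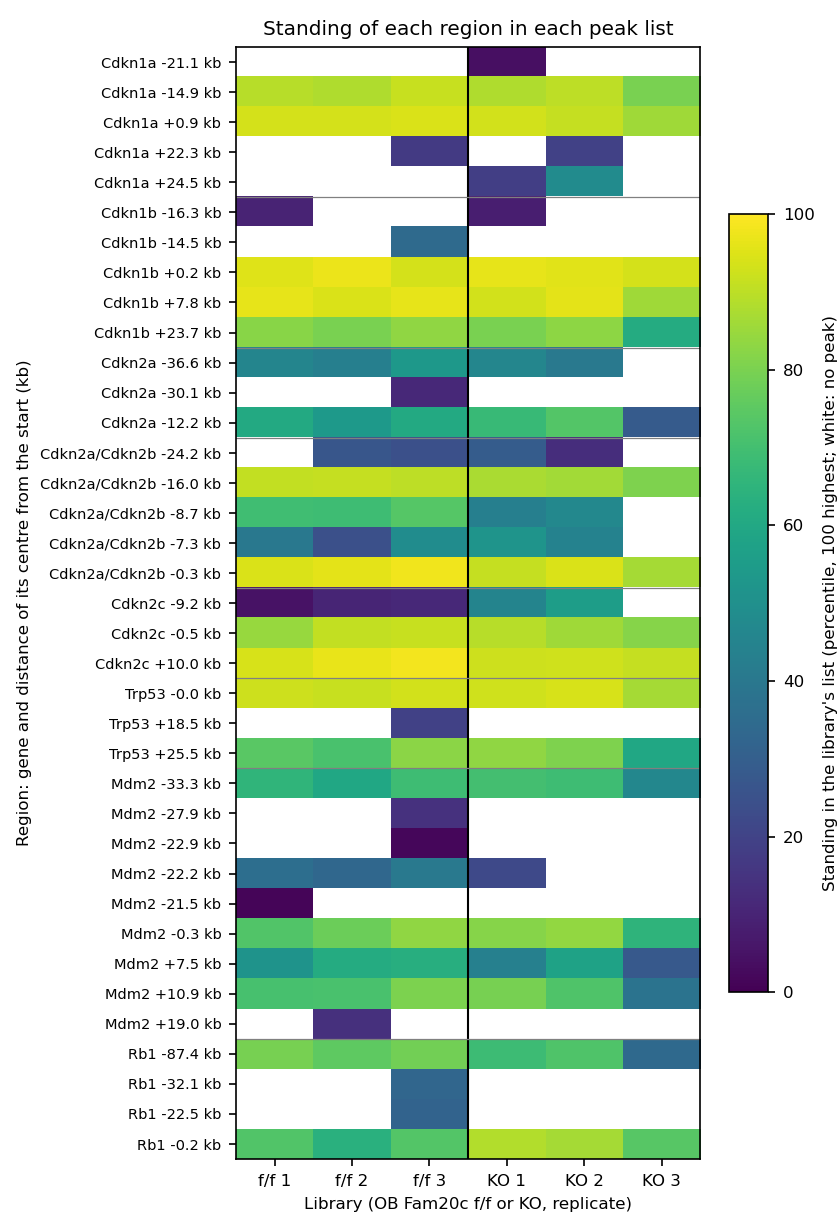
Standing of each of the 37 regions in the peak list of each library, as the percentile by −log10 q (colour, 100 highest, white for no peak). Rows give the gene and the distance in kb of the region's centre from the start, positive toward higher coordinates, measured for Cdkn1a from the proximal start, for Cdkn2a from the Arf start, for rows shared by Cdkn2a and Cdkn2b from the Cdkn2b start and for Rb1 from the upper end of its span. The 18 regions found in every library fill whole rows, and 7 of the 10 rows with 1 filled square have it in f/f replicate 3.

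The annotated starts of these genes were accessible in both groups. Of the 10 starts that the RefSeq table gives for 7 of the genes, 9 lay in a merged region with a peak in all 6 libraries. This held for 37.7% of the 32851 starts in the table. Both starts of Cdkn2c lay in the same region. The exception was the distal start of Cdkn1a, shown above with its p53 decamers, which was covered in 0 libraries. The nearest region lay 2492 bp downstream and covered the proximal start. Its summit, the highest point of the peak, was 1679 to 1736 bp downstream of the proximal start in all 6 libraries and so inside the gene. The Arf summit was between -162 and -82 bp from its start, where negative values are upstream, and the p16Ink4a summit between -134 and -61 bp from its own. The Cdkn2b summit was 93 to 186 bp downstream of the start, and that of Cdkn1b 45 to 194 bp downstream. The Mdm2 summit was between -109 and -106 bp in 5 libraries and 641 bp downstream in f/f replicate 1. At Trp53, whose region also covers the start of Wrap53, a gene that runs the other way, the summit was at -74 and -72 bp in f/f replicate 1 and KO replicate 1 and between -1064 and -1051 bp in the other 4 libraries. Both positions occurred in both groups.

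Changes in strength were tested on the 29849 regions found in every library. In each library these were ranked by −log10 q, and the normal scores of the ranks were compared between the groups with limma, with Benjamini-Hochberg adjustment over all 29849 regions. The standing of a region is given below as its percentile among them. In a bulk library, a site open in fewer cells and a site less open in each cell cannot be told apart. Of the 18 regions at the 8 genes, 1 was lower in KO and 1 was higher, against 12.4% and 13.6% of all tested regions. At an unadjusted p under 0.05 there were 3 lower and 4 higher, against 19.2% and 19.2% of all tested regions. The median difference of the 18 regions was -0.01 in units of the normal score, against -0.02 over all regions. The 18 regions stood at a median percentile of 67.4, against 49.2 over all tested regions and 76.7 over the tested regions that cover a start. Of the 18, 11 covered an annotated start of some gene. Of these, 1 was lower and 0 higher, against 9.99% and 16.5% of the 9275 tested regions that cover a start. Both calls were at Rb1. The lower region covered the start of Lpar6, which lies inside Rb1. The higher one, at the upper end of Rb1, was not among the 11, since the annotation gave no start for Rb1.

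The largest difference of the 18 was at Rb1, which encodes the pocket protein that binds E2F factors. Rb1 had 4 regions, of which 2, 2 and 4 had a peak in the f/f libraries and 2, 2 and 2 in the KO libraries. The region over the upper end of its span, chr14:73324956-73326582, stood at percentiles 43.7, 28.6 and 35.7 in the f/f libraries and at 75.1, 70.5 and 71.5 in the KO libraries. The groups did not overlap, and the lowest KO library was far above the highest f/f library. The difference was 0.96 ± 0.13 (SE, 95% interval 0.68 to 1.24, limma adjusted p = 0.000155). Ranked by the authors' fold over the local background, it was 1.15 ± 0.22 (adjusted p = 0.0238, limma), and it passed the threshold under every alternative and with each library left out. Its summit fold over background was 10.2, 6.6 and 8.6 in f/f and 15.6, 14.4 and 9.7 in KO, so by this value KO replicate 3 lay below f/f replicate 1.

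Another region inside Rb1 went the other way. The region chr14:73237682-73239473, which covers the start of Lpar6, a receptor gene for lysophosphatidic acid nested in Rb1, stood at percentiles 56.3, 48.9 and 48.1 in f/f and at 34.4, 40.9 and 28.9 in KO. All 3 KO libraries were below all 3 f/f libraries. The difference was -0.42 ± 0.13 (SE, adjusted p = 0.0315, limma). This call was less firm. By fold the difference was larger, at -0.56 ± 0.25, but did not pass (adjusted p = 0.234, limma). Without KO replicate 3 it shrank to -0.24 (adjusted p = 0.103, limma). Without KO replicate 1 or any 1 f/f replicate it was -0.36 to -0.46, with adjusted p from 0.0634 to 0.111 (limma). The other 2 regions of Rb1 were both only in f/f replicate 3.

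**Figure D2:**
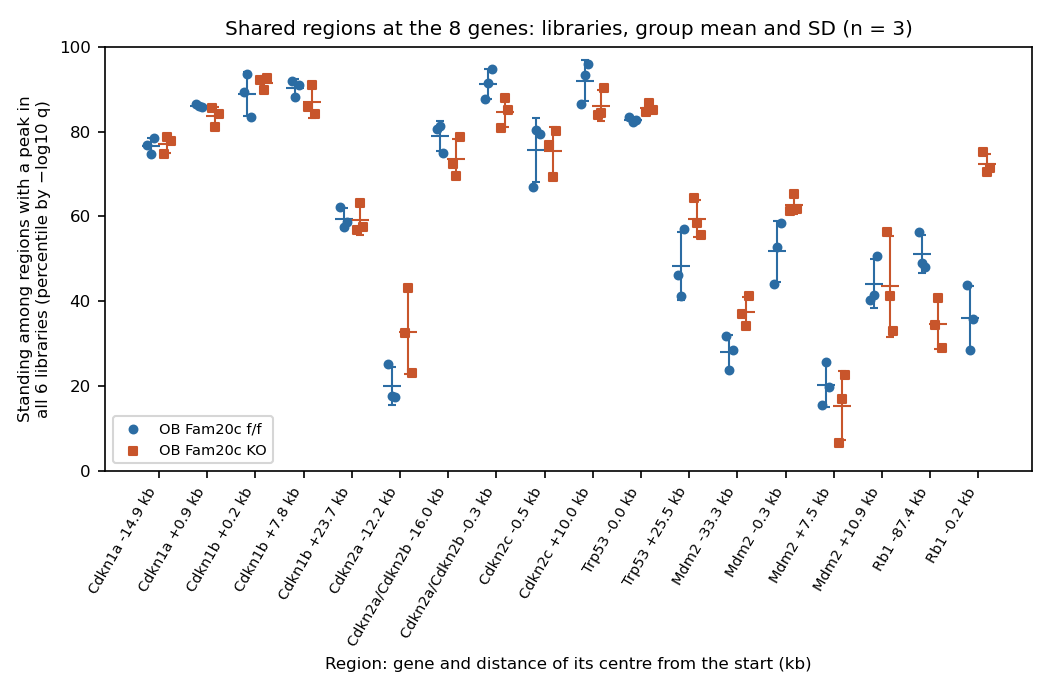
Standing of the 18 regions found in every library, as the percentile by −log10 q among all such regions, with 1 point per library and the group mean with its SD (n = 3) as bars. The groups are furthest apart at the upper end of Rb1 (−0.2 kb), where f/f lie at 28.6 to 43.7 and KO at 70.5 to 75.1.

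Mdm2 and Trp53 showed small differences that did not pass the test. The start of Mdm2, chr10:117709669-117711273, stood at percentiles 44.0, 52.9 and 58.4 in f/f and at 61.4, 65.3 and 61.7 in KO. Every KO library was above every f/f library, with a difference of 0.28 ± 0.13 (adjusted p = 0.111, limma). The same order held at the Trp53 start and the shared region in Cpm, and the reverse at the proximal Cdkn1a start. How often such an order occurs over all tested regions is not given here. At Trp53, 2, 2 and 3 of 3 regions had a peak in f/f and 2, 2 and 2 in KO. Its start, chr11:69578808-69581817, stood at percentiles 83.4, 82.3 and 82.9 in f/f and at 84.8, 86.7 and 85.2 in KO, a difference of 0.11 ± 0.10 with a 95% interval of -0.11 to 0.33 (adjusted p = 0.448, limma). The other shared region at Trp53, chr11:69605145-69606648 in Atp1b2, which encodes a subunit of the sodium pump, stood at percentiles 46.3, 41.3 and 57.1 in f/f and at 64.4, 58.4 and 55.7 in KO. The groups overlapped, and the difference was 0.29 ± 0.13 (adjusted p = 0.130, limma). Mdm2 was the 1 gene of the 8 whose counts of peaked regions did not overlap between the groups, with 6, 6 and 7 in f/f and 5, 4 and 4 in KO. Counts all below f/f were found at 9.95% of the 18156 protein-coding genes with a region, and counts all above at 0.121%, so 1 of 8 is near the background. Of the 9 regions at Mdm2, 4 were found in 1 library. The farthest shared one, chr10:117676765-117678099 in Cpm, had a difference of 0.27 (adjusted p = 0.169, limma).

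Cdkn1a and Cdkn1b had regions of high standing in both groups, and none of these passed the test. At Cdkn1a, 2, 2 and 3 of 5 regions had a peak in f/f and 4, 4 and 2 in KO, and at Cdkn1b 4, 3 and 4 of 5 in f/f and 4, 3 and 3 in KO. The region over the proximal start of Cdkn1a, chr17:29093471-29095883, stood at percentiles 86.6, 86.1 and 85.9 in f/f and at 85.6, 81.2 and 84.1 in KO, a difference of -0.10 ± 0.11 (95% interval -0.33 to 0.12, adjusted p = 0.496, limma). The other shared region of Cdkn1a, chr17:29078279-29079538, lay inside Trp53cor1, a long noncoding RNA gene induced by p53 and also called lincRNA-p21. Its difference was 0.01 ± 0.11 (adjusted p = 0.940, limma). The start of Cdkn1b, chr6:134919766-134921368, stood at a mean percentile of 88.9 ± 5.13 (SD, n = 3) in f/f and 91.6 ± 1.48 (SD, n = 3) in KO. Its difference was 0.13 ± 0.14 (adjusted p = 0.506, limma). The region at the start of Lockd, the long noncoding RNA gene next to Cdkn1b, chr6:134926957-134929356, was as high, with means of 90.4 ± 2.08 and 87.0 ± 3.68 (SD, n = 3) and a difference of -0.17 (adjusted p = 0.315, limma).

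Cdkn2a had 8 regions, of which 6, 7 and 8 had a peak in f/f and 7, 7 and 3 in KO, and 2 starts of different standing. The Arf start, chr4:89294162-89295939, stood at percentiles 80.6, 81.4 and 74.9 in f/f and at 72.4, 69.7 and 78.7 in KO, and the groups overlapped (difference -0.17 ± 0.12, adjusted p = 0.302, limma). The p16Ink4a start, chr4:89281823-89283068, stood at percentiles 25.1, 17.6 and 17.4 in f/f and at 32.4, 43.1 and 23.1 in KO. KO replicate 3 lay among the f/f libraries, and the difference was 0.39 ± 0.17 (adjusted p = 0.104, limma). Without KO replicate 3 it was 0.45 and passed the test (adjusted p = 0.0157, limma). With equal numbers of peaks from each list it passed as well, at 0.88 (adjusted p = 0.0388, limma), and with array weights, at 0.60 (adjusted p = 0.00132, limma). Without KO replicate 2 it fell to 0.25 (adjusted p = 0.374, limma), and by fold it was 0.35 (adjusted p = 0.454, limma). The order of the starts, with Arf above p16Ink4a, was the same in each of the 6 libraries. The window before the Arf start also held more CpG, a value of the reference sequence that does not vary between libraries. Whether CpG content and standing are linked was not tested.

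The start of Cdkn2b, chr4:89310091-89311410, was the highest of the 3 INK4 starts on chromosome 4 by its group means. Of the 5 regions at Cdkn2b, 4, 5 and 5 had a peak in f/f and 5, 5 and 2 in KO. The start stood at percentiles 87.7, 91.4 and 94.7 in f/f and at 81.0, 87.9 and 85.2 in KO, with a difference of -0.35 ± 0.13 that did not pass the test (adjusted p = 0.0627, limma). It passed without f/f replicate 1 (-0.46, adjusted p = 0.0272, limma) and with array weights (-0.39, adjusted p = 0.00699, limma), whereas without f/f replicate 3 it was -0.23 (adjusted p = 0.280, limma). By fold over background the difference had the other sign, at 0.26 (adjusted p = 0.534, limma).

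Between Cdkn2a and Cdkn2b lay a region that KO replicate 3 lacked, chr4:89301926-89302681. It is inside Gm12610, a long noncoding RNA gene whose annotated span covers Cdkn2b, and 3.61 kb from Cdkn2b. It stood at percentiles 69.5, 69.0 and 73.4 of the f/f lists and at 43.2 and 46.7 of the lists of KO replicates 1 and 2. In each KO library it was thus lower than in any f/f library or without a peak. Tested without KO replicate 3, its difference was -0.81 ± 0.13 (adjusted p = 0.000162, limma), and with equal numbers of peaks from each list it was found in all f/f and no KO library, as were 2.83% of all regions. The next region toward Cdkn2b, chr4:89303320-89304148, stood at percentiles 39.9, 24.3 and 48.6 in f/f and at 51.7 and 44.4 in KO replicates 1 and 2, and did not pass (adjusted p = 0.137, limma).

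**Figure D3:**
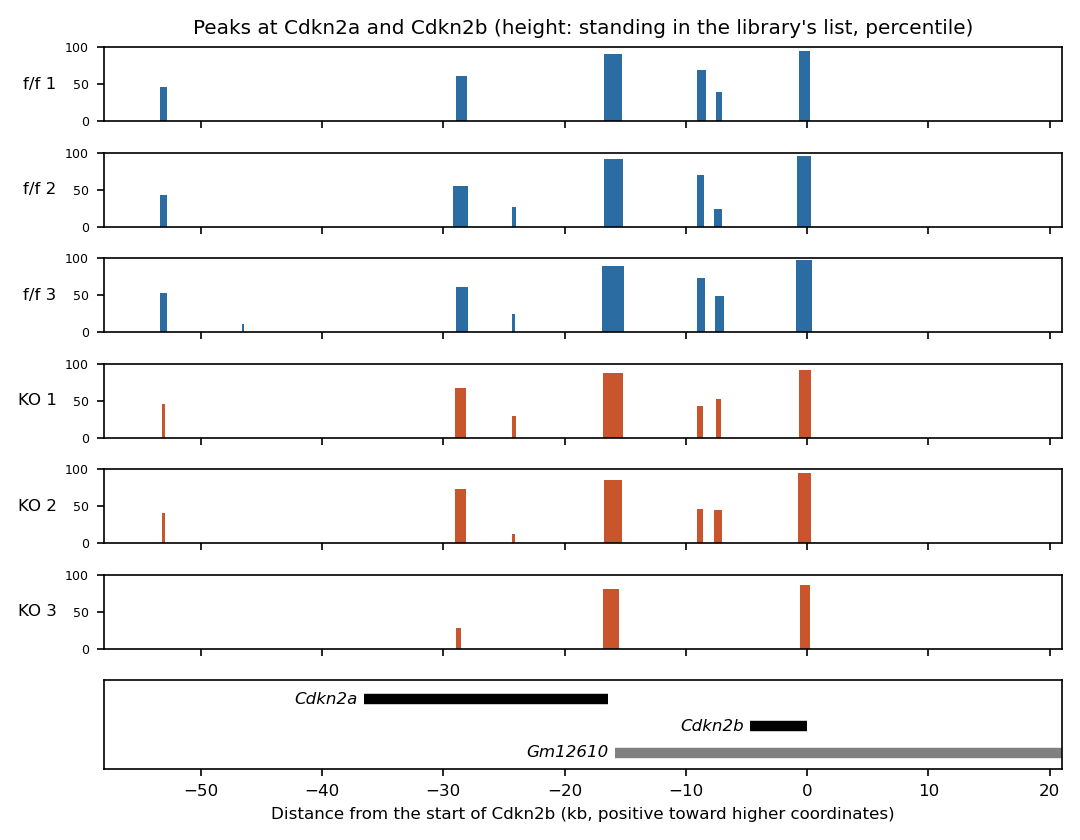
Peaks of each library along the stretch of Cdkn2a and Cdkn2b, as distance in kb from the start of Cdkn2b, with bar height the standing in the library's own list (percentile, 100 highest) and gene spans below. The tall bars at the Arf start (about −16 kb) and at Cdkn2b (0 kb) are in all 6 libraries, and the bar at about −9 kb is lower in KO replicates 1 and 2 and missing in KO replicate 3.

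Cdkn2c had 3 regions, all with a peak in every library but KO replicate 3, which had 2. Its start, chr4:109665099-109667417, stood at a mean percentile of 75.6 ± 7.52 (SD, n = 3) in f/f and 75.4 ± 5.61 (SD, n = 3) in KO, a difference of -0.01 ± 0.14 (adjusted p = 0.961, limma). The highest of the 3 was at the start of the neighbour Faf1, chr4:109676055-109677422, at percentiles 86.6, 93.4 and 96.1 in f/f and at 83.9, 84.4 and 90.3 in KO. Its difference of -0.36 ± 0.15 did not pass (adjusted p = 0.0963, limma) except without KO replicate 3 (-0.41, adjusted p = 0.0227, limma) and in 3 other alternatives given in the closing section. The lowest covered the start of the noncoding gene 9630013D21Rik, chr4:109657011-109658180, 2.70 kb from Cdkn2c. It was at percentiles 4.8, 10.3 and 11.5 of the f/f lists and at 45.0 and 55.6 of KO replicates 1 and 2, and KO replicate 3 had no peak there. Without KO replicate 3 the difference was 1.88 ± 0.32 (adjusted p = 0.000294, limma). KO replicates 1 and 2 were thus above every f/f library at this region, whereas KO replicate 3 had no peak.

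Leaving out KO replicate 3 raised the number of tested regions at the 8 genes to 22. Of these 2 were lower, the region between Cdkn2a and Cdkn2b and the Faf1 start, and 3 were higher, the upper end of Rb1, the p16Ink4a start and the 9630013D21Rik start, against 12.6% lower and 12.7% higher of all 46992 regions then tested. Ranking by fold over background instead of −log10 q gave 0 lower and 1 higher, against 1.58% and 1.78% of all regions. At an unadjusted p under 0.05 there were 1 lower and 3 higher, against 11.1% and 10.0% of all regions. The direction of small differences depended on this choice. By −log10 q, 8 of the 18 regions were above 0 and 10 below, and by fold 15 were above and 3 below. By fold the median difference was 0.26 for the 18 regions, 0.20 for all regions that cover a start and 0.02 for all regions.

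**Figure D4:**
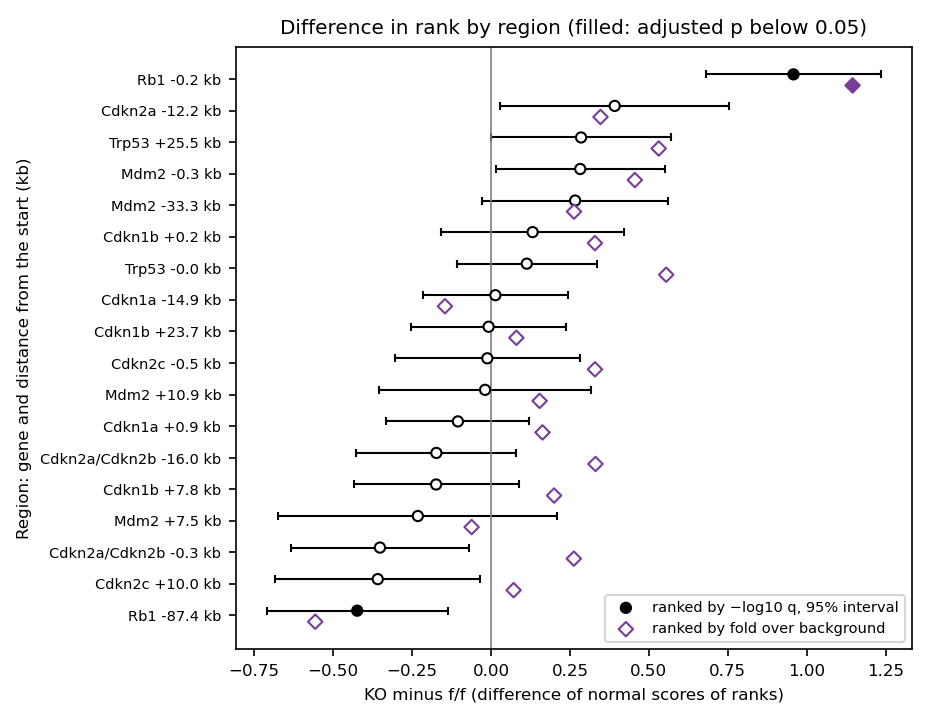
Difference between KO and f/f (normal scores of ranks, positive where KO was higher) for each of the 18 shared regions, ranked by −log10 q (circles, with 95% intervals) and by fold over the local background (diamonds). Filled symbols have an adjusted p below 0.05 (limma). The upper end of Rb1 passes by both rankings, at 0.96 and 1.15, and the region at −87.4 kb in Rb1 only by −log10 q.

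Cdkn2a, Cdkn2b and Cdkn2c lay outside a 15 Mb segment of chromosome 4 that begins at 90 Mb, in which many regions of f/f had no peak in KO. The segment was chosen from these data, so its own values are a description. The spans of Cdkn2a and Cdkn2b ended 0.705 and 0.689 Mb before the segment, and that of Cdkn2c began 4.66 Mb after it. Of the regions found in 3 of 3 f/f libraries, 206 of 345 (59.7%) in the segment had a peak in no KO library, against 13 of 118 (11.0%) in the 5 Mb before it, 13 of 146 (8.90%) in the 5 Mb after it and 6.25% over all chromosomes. In the 1 Mb window that holds Cdkn2a and Cdkn2b this share was 1 of 37 (2.70%), and in the next window it was 4 of 4. The peaked regions in the window of Cdkn2a and Cdkn2b numbered 41, 44 and 53 in f/f and 42, 46 and 20 in KO. In the next window they were 9, 14 and 7 in f/f and 0, 0 and 0 in KO. The KO libraries thus had peaks up to and past Cdkn2b but none in the following window.

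Between Cdkn2b and 90 Mb, 0 of 17 regions found in 3 of 3 f/f libraries were without a peak in KO, and the nearest such region in that direction, chr4:90860830-90861472, was 1550 kb from Cdkn2b. In the other direction the nearest was chr4:89162074-89162645, 112 kb from Cdkn2a, in Mtap. In the window of Cdkn2a and Cdkn2b the tested regions had a median difference of -0.23, against -0.02 over all tested regions. Of its 18 tested regions 5 were lower and 1 higher, against 12.4% lower and 13.6% higher of all tested regions. In the 5 Mb before the segment, which hold this window, 15 of 51 were lower (29.4%), with a median of -0.24. In the segment the median was -1.39, and 45 of 54 were lower. Around Cdkn2c, 6 of 34 regions (17.6%) in its window had a peak in all f/f and no KO library. The nearest of these was chr4:109726396-109726992 in Faf1, 59.6 kb from Cdkn2c, and the peaked regions of the window numbered 40, 38 and 46 in f/f and 30, 32 and 16 in KO.

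**Figure D5:**
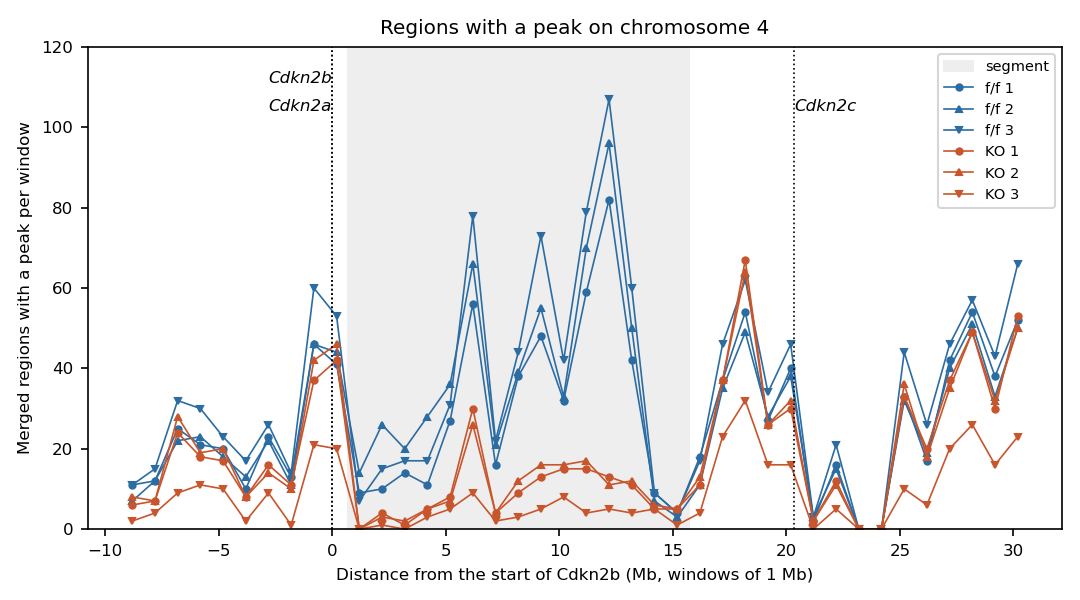
Number of merged regions with a peak in each 1 Mb window of chromosome 4, by distance in Mb from the start of Cdkn2b, for each library. Dotted lines mark Cdkn2a, Cdkn2b and Cdkn2c, and the grey band is the 15 Mb segment. In the band the KO libraries lie below the f/f libraries in most windows, whereas at Cdkn2a and Cdkn2b KO replicates 1 and 2 lie at 42 and 46 beside 41 to 53 in f/f.

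The other genes of the pathway were taken as a list. The 31 further inhibitors, pocket proteins, E2F factors, cyclins, kinases, regulators of p53 and its targets had 177 regions. All 31 genes had at least 1 region with a peak in all 6 libraries. Of the 177 regions, 6 (3.39%, against 3.75% of all regions) had a peak in all f/f and no KO library, 1 each at Rbl1, E2f2, Cdk4, Ccnd1, Ccng1 and Trp73, and 0 had the reverse. Of the 97 tested, 8 were lower (8.25%, against 12.4% of all tested regions) and 17 higher (17.5%, against 13.6%), with a median difference of 0.09, against -0.02 over all. Among all tested regions that cover a start, 9.99% were lower and 16.5% higher, with a median of 0.03, so the shares of the list are near those of starts. The genes with more than 1 higher region, named after their values were seen, were Btg2, an antiproliferative gene with 3 of 6, and Bbc3, which encodes the apoptosis inducer Puma, with 2 of 5. Of other p53 targets in the list, Gadd45a had 1 higher of 3 tested regions and Bax 1 higher of 7. Ppm1d, Ccng1 and Zmat3 had 0 called regions and Sesn2 had 1 lower of 4. At Cdkn1c, the third member of the p21 family, the 1 tested region was lower, and at Cdkn2d, the INK4 gene for p19Ink4d, 1 of 2 was higher.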

How the data were processed

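Per the labels and the methods of the study, reads of 3 f/f and 3 KO ATAC-seq libraries were trimmed with Trimmomatic, aligned to mm10 with BWA, and passed to MACS2 2.1.2, with which the authors called peaks per library (q-value threshold 0.05). How duplicate reads and blacklisted regions were treated is not given in the sources used here. The deposited lists give for each peak the fold at its summit (a ratio to local background), the −log10 p and −log10 q, a score made from the −log10 q, and the summit position. The score was not used. Depth affects these values, so only their ranks within a list were used. Read counts, and the authors' test on them, were not analysed here.

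Samples were grouped by the labels. Peaks sharing 1 bp or more were merged with Python 3.11.15 (numpy 2.4.6, pandas 2.3.3). Gene spans, starts and the sequences before them were those of RefSeq GRCm38.p6, in the coordinates of mm10. The annotation gave no strand or start for Rb1, whose region is named by the end of its span. Regions found in every library were ranked in each by −log10 q, and normal scores of the ranks were fitted with limma 3.58.1 (R 4.3.3) with a mean trend, group as the only term and Benjamini-Hochberg adjustment at 0.05. An exact permutation test of 3 against 3 libraries cannot go below 0.1. Intervals are at 95%. Merging and limma were tested on simulated data. Starts were counted as covered in all 6 libraries where the merged region over them had a peak in each library. The regions named were, at each gene, those over its start or span end, the region of highest mean standing, those past the threshold, and otherwise the one with the largest difference. The others named were chosen after their values were seen. The genes and lists were chosen with earlier results of these data known. The alternatives were a −log10 q of 5 or more, equal peak numbers, a 50% overlap of the shorter peak, extensions of 3 and 50 kb, ranking by fold, percentiles, the replicate number as a block, array weights, windows of 2 Mb, and each library left out in turn.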

Additional observations from a re-analysis of the deposited data

How the results depend on the processing

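The higher standing of the upper end of Rb1 in KO kept its direction and passed the threshold under every alternative run. The counts behind it were small and moved with the settings. Of the regions at the 8 genes, 1 was lower in KO, 0 when ranked by fold, 3 with array weights and 0 to 2 with each library left out. The number higher, 1, became 2 with equal peak numbers, 2 with array weights, 3 with an extension of 50 kb and 1 to 3 with each library left out. Calls over all 29849 tested regions moved too, from 3706 lower and 4066 higher to 6135 and 6113 with array weights. By fold they were 471 and 532, and with equal peak numbers 2787 and 3079 of 24017. With each library left out, 2041 of 29955 to 5912 of 46992 were lower and 2688 of 29955 to 5959 of 46992 higher. The regions added at 50 kb were in Rab44, near Cdkn1a, and in Rcbtb2, near Rb1. The f/f-only count of 0 became 1 with equal peak numbers, 1 with 50 kb (in Cpm, near Mdm2) and 0 to 1 with each library left out, and the KO-only count of 0 became 0 to 1. The 1 gene with counts that did not overlap, Mdm2, became 0 at a −log10 q of 5 or more, with equal peak numbers and with 3 kb, 2 with 50 kb and 1 to 2 with each library left out. Windows of chromosome 4 with at least 50% f/f-only regions numbered 10 at 1 Mb and 6 at 2 Mb.

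With the replicate number as a replicate block, 3 regions were lower, among them the starts of Cdkn2b (-0.35, adjusted p = 0.0455, limma) and Faf1 (-0.36, adjusted p = 0.0426, limma). Over all 29849 tested regions 3731 were then lower, against 3706 without the block. The replicate numbers did not pair the libraries, since the deviations of same-numbered libraries correlated at 0.05, -0.12 and -0.14. The starts of Cdkn2b and Faf1 also passed without f/f replicate 1 (-0.46 and -0.53) and with array weights (-0.39 and -0.55).

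Ranked by fold, 9 differences changed sign, none past the threshold: the Arf start to 0.33, the starts of Cdkn2b to 0.26, Cdkn2c to 0.33 and Faf1 to 0.0715, the Cdkn1a start to 0.16, the Trp53cor1 region to -0.15, the Lockd start to 0.20, the region inside Lockd to 0.0802 and the Mdm2 region at 10.9 kb to 0.15. The cause was not tested. With each library left out, differences near 0 also changed sign, with ranges of -0.0594 to 0.0275 inside Lockd, -0.0178 to 0.0515 at Trp53cor1, -0.145 to 0.0843 at the Cdkn2c start, -0.18 to 0.10 at the Mdm2 region at 10.9 kb and -0.007 to 0.271 at the Cdkn1b start. With array weights the region inside Lockd was at 0.0521.

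The peak lists limit what can be said. They hold no read counts, and a missing peak is not closed chromatin. KO replicate 3, with the shortest list, changes the calls at the Lpar6, p16Ink4a and Faf1 starts when left out, as do other settings. It also keeps the regions between Cdkn2a and Cdkn2b and at 9630013D21Rik out of the test of 6 libraries.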
